A study of Mus musculus with 28 samples.

Results

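Microglia from germ-free (GF) wild-type mice were compared with microglia from colonized, specific pathogen free (SPF) wild-type (WT) mice across the whole transcriptome. The mice were taken by the titles of their libraries, which gave 4 GF WT and 5 SPF WT mice of the 28 mice in the series, with 1 library per mouse. All 9 were male, non-transgenic littermates of the 5xFAD line on a C57BL/6J background and 16 weeks old. Microglia were sorted from the hippocampus as CD11b+CD45low cells after exclusion of cells that carry lymphocyte markers such as CD3 and CD45R, or Ly6C or Ly6G. GF mice came from a colony derived by embryo transfer and kept in the Clean Mouse Facility in Bern, and SPF mice were housed in Freiburg. The descriptions of the GF libraries follow another numbering style than those of the SPF WT libraries. GF housing, the source of the mice and this numbering style therefore cannot be told apart. The other groups used here were 5 GF and 3 SPF mice that carry the 5xFAD transgenes, a set of human amyloid precursor protein and presenilin mutations expressed in neurons, and 5 SPF WT mice given oral antibiotics (ABX) for 8 weeks. The fit also held 6 ABX 5xFAD mice, which entered the shared estimate of the spread. Mouse FAD_GF_201 is called a WT mouse in its description.

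Microglia are the resident macrophages of the brain. They enter it in the embryo, renew themselves locally and depend on signals such as CSF1 and TGF-beta. Products of gut bacteria, among them short-chain fatty acids and ligands of the aryl hydrocarbon receptor, are known to influence their maturation, and microglia of GF mice are known for an immature state. The comparison asks which genes and pathways differ with the absence of microbes when no amyloid disease is present.

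Between 15182194 and 22058726 reads were counted on genes in GF WT libraries and between 16939825 and 25751625 in SPF WT libraries. Every replicate pair was further apart than counting noise allows, with chi-square values of at least 11.4 per degree of freedom. The first principal component of log2 CPM, the read counts scaled to a common library size, over the 9 mice held 23.7% of the variance and separated the groups, with mouse WT_GF_199 at 7.16, the other GF mice between 40.9 and 45.3 and the SPF mice between -41.3 and -19.4. The summed level of 8 microglia markers, among them *P2ry12* and *Tmem119*, was 46638 to 48143 CPM in GF and 46489 to 50911 CPM in SPF mice. Markers of T or NK cells summed to at most 0.747 CPM, and the 5 mast cell markers were at 0 in all 9 libraries. Other lists were higher. B cell markers summed to 625 to 798 CPM in GF and 548 to 681 CPM in SPF mice, most of it *Ighm*. Neutrophil markers summed to 574 to 591 and 515 to 574 CPM, most of it *Csf3r*. *Cxcr2* of that list had 42 reads in GF and 1 in SPF libraries. Oligodendrocyte markers summed to 174 to 190 and 165 to 190 CPM, and endothelial markers to 28.6 to 35.9 and 31.3 to 44.2 CPM. Among 8 astrocyte markers the glutamate transporter *Slc1a3* was at 228 to 297 CPM in GF and 233 to 266 CPM in SPF mice, whereas the other 7 summed to 0.952 to 3.10 CPM in GF and 3.27 to 10.6 CPM in SPF mice. Without *Aldoc* the remaining 6 summed to 0.907 to 2.83 CPM in GF and 2.46 to 3.84 CPM in SPF mice, with overlap. In bulk samples such as these, fewer cells of a type and less RNA per cell cannot be told apart.

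Of 15298 genes tested, 248 (1.62%) differed between GF and SPF WT mice in edgeR's quasi-likelihood test at a Benjamini-Hochberg adjusted p-value below 0.05. In GF mice 133 of these (0.869%) were higher and 115 (0.752%) were lower. The median absolute log2 fold change of the 248 genes was 0.681, and 39 higher and 33 lower genes changed by more than 1 on the log2 scale. Fold changes below are GF minus SPF on this scale, where the median of all genes was -0.0051. In 842 of all tested genes (5.50%) every GF mouse lay above every SPF mouse, and in 790 (5.16%) every GF mouse lay below. Among the 248 genes the groups did not overlap for 222. An exact permutation test over the 126 regroupings of 4 against 5 mice cannot give a two-sided p below 0.0159. The number of genes depended on single mice: it was 54 without mouse WT_GF_229, 65 without mouse WT_GF_231, 91 without mouse WT_GF_230, 92 without mouse WT_SPF_912, 106 without mouse WT_SPF_936, 113 without mouse WT_SPF_926 and 159 without mouse WT_SPF_928. Without both mice WT_GF_229 and WT_GF_230 it was 3, although all 248 genes kept their sign. Other fits gave higher counts: 659 when 2 ABX 5xFAD mice were left out, 707 with DESeq2, 1286 with only the groups compared and 1631 with limma's voomWithQualityWeights. The shares of all tested genes were 4.62% with DESeq2, 10.7% with voomWithQualityWeights and 16.6% at an unadjusted p-value under 0.05 with edgeR, and serve as the background for the counts of list members below. Genes higher in GF mice had a median GC content of 55.4% and lower genes of 44.3%, against 49.4% over the tested genes, and with GC content offsets 86 genes were higher and 38 lower.

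**Figure D1:**
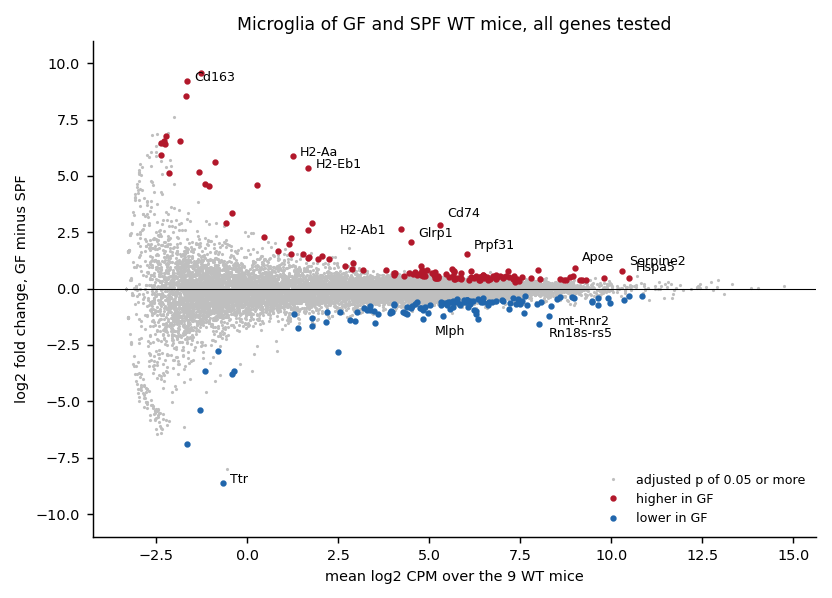
Log2 fold change of GF against SPF WT mice (vertical axis) against mean log2 CPM over the 9 mice (horizontal axis), 1 point per tested gene, with the genes past an adjusted p-value of 0.05 coloured. The 133 higher and 115 lower genes spread over a wide range of expression, and *H2-Aa* and *H2-Eb1*, at 5.87 and 5.36, are the highest of those with a mean of at least 1 log2 CPM.

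The largest rises among genes with a mean of at least 1 log2 CPM over the 9 mice were those of *H2-Aa* and *H2-Eb1*, and among genes with a mean of at least 3 log2 CPM those of *Cd74* and *H2-Ab1*. These genes belong to major histocompatibility complex (MHC) class II, the molecules by which antigen-presenting cells show peptides to CD4+ T cells. *H2-Aa* and *H2-Ab1* encode the alpha and beta chain of the I-A molecule, *H2-Eb1* the beta chain of I-E, and *Cd74* the invariant chain that guides class II through the cell. Of 13 tested genes of the class II list 4 rose and 0 fell. The median of the list was 0.39 on the log2 scale. These promoters are shown because class II genes are known to be switched on together through a shared promoter module, of which the Y box (TGATTGG, in capitals) is the last element before the start. The 120 bases before the RefSeq start (GRCm38.p6) lie at chr17:34287824-34287943 on the minus strand for *H2-Aa* and at chr17:34305747-34305866 on the plus strand for *H2-Eb1*.
H2-Aa: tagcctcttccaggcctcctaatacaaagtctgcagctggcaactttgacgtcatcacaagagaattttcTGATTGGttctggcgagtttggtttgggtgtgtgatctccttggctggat
H2-Eb1: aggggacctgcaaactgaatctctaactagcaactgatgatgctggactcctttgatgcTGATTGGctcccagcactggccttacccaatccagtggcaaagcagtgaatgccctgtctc
The Y box begins 50 bases before the start of *H2-Aa* and 61 bases before that of *H2-Eb1*. On either strand it occurred in 10.5% of the promoters of all tested genes that have an entry, in 13.7% of those of genes higher in GF mice and in 4.76% of those of genes lower in GF mice. This motif was chosen after the values were seen.

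*H2-Aa* (chr17:34282744-34287823) measured 3.63, 71.4, 52.8 and 5.86 CPM in mice WT_GF_199, WT_GF_229, WT_GF_230 and WT_GF_231, and 0.0408, 0.537, 0.168, 1.12 and 0.936 CPM in mice WT_SPF_912, WT_SPF_925, WT_SPF_926, WT_SPF_928 and WT_SPF_936. Mice are listed in this order throughout. Every GF mouse lay above every SPF mouse, but mice WT_GF_229 and WT_GF_230 were about an order of magnitude above the other GF mice. The log2 fold change was 5.87 (SE 0.894, adjusted p = 0.00109, edgeR quasi-likelihood, and exact permutation p = 0.0159, two-sided). *H2-Eb1* (chr17:34305867-34316674) measured 3.09, 62.1, 53.8 and 7.99 CPM in GF and 0.734, 0.576, 0.67, 0.603 and 1.26 CPM in SPF mice. Again the groups did not overlap and the same GF mice were high (log2 fold change 5.36, SE 0.835, adjusted p = 0.00115). *Cd74* reached 29.2, 284, 214 and 44.9 CPM in GF and 15.7, 17.0, 21.6, 22.6 and 23.01 CPM in SPF mice (log2 fold change 2.84, SE 0.529, adjusted p = 0.00713). *H2-Ab1* was at 12.8, 128, 84.2 and 25.0 CPM in GF and 10.2, 11.2, 7.6, 8.36 and 11.5 CPM in SPF mice (log2 fold change 2.67, SE 0.544, adjusted p = 0.011). All 4 genes were higher in 4 of 4 GF mice than in any SPF mouse. Without mice WT_GF_229 and WT_GF_230 the adjusted p-values were 0.263, 0.263, 0.606 and 0.628, with log2 fold changes of 3.04 for *H2-Aa*, 2.82 for *H2-Eb1*, 0.89 for *Cd74* and 0.93 for *H2-Ab1*, and *H2-Ab1* was also lost without mouse WT_GF_229 alone (0.0943). With limma's voomWithQualityWeights the adjusted p-value of *H2-Aa* was 0.0535.

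Class II genes are strong in macrophages at the borders of the brain, so the markers of these cells are given beside them. The border-associated macrophage list summed to 26.1, 44.3, 40.4 and 10.9 CPM in the GF mice and to 3.48 to 8.62 CPM in the SPF mice. Of its 9 markers 6 were higher in GF mice and 0 were lower. The 6 were *Cd163*, *Clec10a*, *F13a1*, *Pf4*, *Ms4a7* and *Cbr2*, while *Mrc1*, *Lyve1* and *Folr2* did not pass. *Mrc1*, a mannose receptor, measured 18.6, 11.6, 11.7 and 9.09 CPM in GF and 3.27 to 7.97 CPM in SPF libraries. *Folr2* had 12 reads in GF and 16 in SPF libraries. *Cd163*, *Lyve1* and *Clec10a* had 0 reads in all 5 SPF libraries, and *Lyve1* was also at 0 in mice WT_GF_229 and WT_GF_231. Monocyte markers summed to 5.53, 34.9, 13.9 and 6.98 CPM in GF and to 7.05 to 8.57 CPM in SPF mice. Among them *Ly6c2* was at 0 in all 9 libraries, and the factor XIII gene *F13a1*, which is also on the border-associated list, was the only marker that rose. Mice WT_GF_229 and WT_GF_230 were highest in the sum of the 4 class II genes (545 and 405 CPM, against 48.7 and 83.7 CPM in the other GF mice), in the border-associated sum and in the monocyte sum, and the part of these cells in the class II result was not tested.

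**Figure D2:**
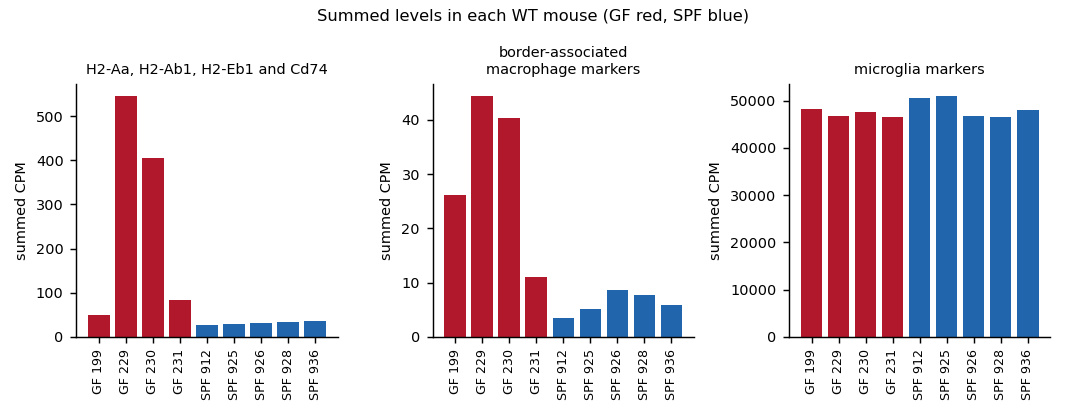
Summed CPM per mouse (linear axes from 0) of *H2-Aa*, *H2-Ab1*, *H2-Eb1* and *Cd74*, of the border-associated macrophage markers and of the microglia markers, with 1 bar per mouse for 4 GF and 5 SPF WT mice. The class II sum refers to TMM-scaled library sizes and the marker sums to library totals. Class II reached 545 and 405 CPM in mice WT_GF_229 and WT_GF_230, border-associated markers were at least 10.9 CPM in every GF and at most 8.62 CPM in every SPF mouse, and microglia markers ranged from 46489 to 50911 CPM in both groups.

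*Prpf31*, which encodes a protein of the U4/U6-U5 spliceosome particle, had the smallest p-value of all genes. It measured 84.8, 130, 136 and 128 CPM in GF mice and 40.4, 43.3, 46.1, 38.5 and 38.1 CPM in SPF mice. Mouse WT_GF_199 lay between the SPF mice and the other GF mice, which were close together. The log2 fold change of *Prpf31* (chr7:3629985-3642486) was 1.53 (SE 0.147, adjusted p = 4.16e-07, edgeR quasi-likelihood), and of the 58 genes past the threshold that were chosen by the rule for named genes it alone passed under every alternative run for it (21), also without mice WT_GF_229 and WT_GF_230 (1.36, adjusted p = 0.000369). In ABX WT mice *Prpf31* measured 34.6 to 46.5 CPM.

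*Scarb1*, the scavenger receptor for high-density lipoprotein, was at 77.9, 99.1, 109 and 96.1 CPM in GF and 47.4, 58.2, 61.7, 52.6 and 57.4 CPM in SPF mice (log2 fold change 0.79, SE 0.124, adjusted p = 0.00133). *Apoe*, the main lipid carrier of the brain, was at 405, 955, 922 and 749 CPM in GF and 278, 476, 444, 518 and 301 CPM in SPF mice. Its groups overlapped because mouse WT_GF_199 lay within the SPF range, and the log2 fold change was 0.91 (SE 0.227, adjusted p = 0.0362, and exact permutation p = 0.0635, two-sided). *Apoe* passed in 13 of 21 alternatives, with 0.0544 under GC content offsets and up to 0.154 without a single mouse (mouse WT_GF_229), and its call was also lost without mouse WT_GF_230, WT_GF_231, WT_SPF_912, WT_SPF_926 or WT_SPF_936. *Serpine2*, a secreted inhibitor of serine proteases, was at 959, 2165, 1746 and 2041 CPM in GF and 982, 1036, 981, 1018 and 992 CPM in SPF mice. Mouse WT_GF_199 was just below the SPF range, and the other GF mice were between 1746 and 2165 CPM. The log2 fold change of *Serpine2* was 0.79 (SE 0.152, adjusted p = 0.00884, and 0.0619 without mouse WT_GF_229).

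*Apoe* and *Mylip*, an E3 ligase that degrades the low-density lipoprotein receptor, are both targets of the liver X receptors, and they moved in opposite directions. *Mylip* fell from 412 to 457 CPM in SPF mice to 274 to 328 CPM in GF mice (log2 fold change -0.48, SE 0.11, adjusted p = 0.0218, and 0.111 without mouse WT_GF_229). Of 13 tested targets 1 rose and 1 fell, with a median of 0.25. *Nr1h2*, which encodes the receptor LXR beta, was at 76.6 to 111 CPM in GF and 61.4 to 70.6 CPM in SPF mice (log2 fold change 0.54, adjusted p = 0.0585). In fatty acid handling, *Acadvl*, which starts mitochondrial oxidation of long-chain fatty acids, rose by 0.55 (SE 0.127, adjusted p = 0.024, and up to 0.106 without a single mouse, mouse WT_GF_230) and was the only 1 of 31 genes to pass. With GC content offsets the adjusted p-value was 0.0639 for *Acadvl* and 0.0504 for *Mylip*. Of 24 cholesterol genes 0 passed with edgeR, 4 had an unadjusted p-value under 0.05, and DESeq2 called 1 and voomWithQualityWeights 2. The transcription factor *Srebf2* came nearest at 0.51 (adjusted p = 0.0587), and *Dhcr7*, of the last step of synthesis, was at -0.52 (adjusted p = 0.114).

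*Glrp1*, a glutamine repeat gene, had a divided GF group. It measured 8.91, 72.4, 73.1 and 72.8 CPM in GF and 10.4, 13.2, 18.0, 11.1 and 15.0 CPM in SPF mice, so that mouse WT_GF_199 lay below every SPF mouse and the other 3 lay far above. The log2 fold change was 2.07 (SE 0.415, adjusted p = 0.0105, and exact permutation p = 0.0952, two-sided). *Crybb1*, a crystallin gene known as a microglia marker of early postnatal life, was the only member of the homeostatic list to pass. It rose from 217, 172, 183, 208 and 229.4 CPM in SPF mice to 259, 370, 372 and 411 CPM in GF mice (log2 fold change 0.81, SE 0.169, adjusted p = 0.0134, with 0.0644 without mouse WT_GF_231 and 0.0569 without mouse WT_GF_229). *Notch4*, a Notch receptor, was at 32.7 to 47.4 CPM in GF and 16.5 to 26.7 CPM in SPF mice, a log2 fold change of 1.02 (adjusted p = 0.0282). The membrane protease *St14* rose by 0.82 (adjusted p = 0.0194) and the scaffold gene *Iqgap1* by 0.84 (adjusted p = 0.0226). *Gpr137b*, a lysosomal membrane protein, was at 94.6, 93.7, 36.7 and 62.9 CPM in GF and 36.8 to 42.3 CPM in SPF mice, so mouse WT_GF_230 lay just below the SPF range (log2 fold change 0.89, adjusted p = 0.0287). *Frmd8*, a partner of the iRhom proteins that carry the TNF-releasing protease, rose by 0.51 (SE 0.0909, adjusted p = 0.00522) and lay higher in 4 of 4 GF mice. The calls of *Notch4*, *St14*, *Iqgap1* and *Gpr137b* were lost without 4 to 8 single mice, with adjusted p-values up to 0.144 (*Gpr137b*, without mouse WT_GF_229).

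**Figure D3:**
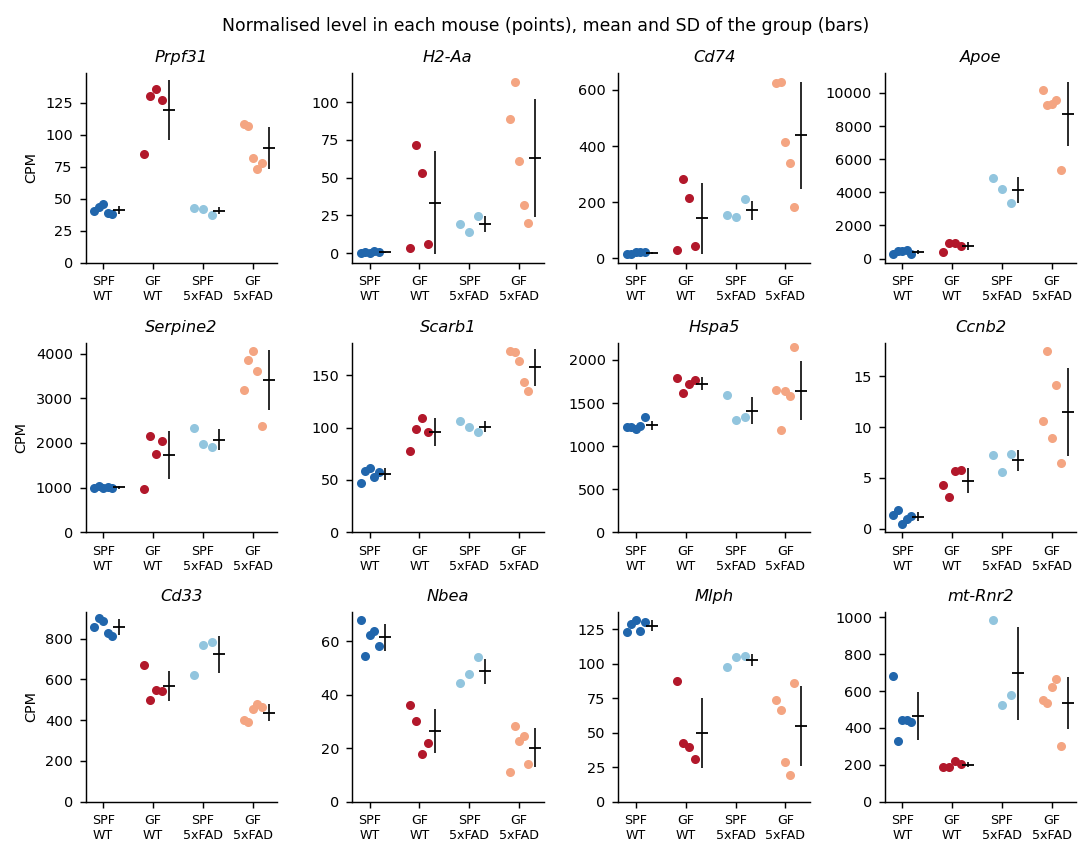
CPM by mouse of *Prpf31*, *H2-Aa*, *Cd74*, *Apoe*, *Serpine2*, *Scarb1*, *Hspa5*, *Ccnb2*, *Cd33*, *Nbea*, *Mlph* and *mt-Rnr2* on linear axes in 5 SPF WT, 4 GF WT, 3 SPF 5xFAD and 5 GF 5xFAD mice, with points for mice and bars for mean ± SD. *Prpf31*, *H2-Aa* and *Cd74* lie higher in every GF than in every SPF WT mouse and *Cd33*, *Nbea*, *Mlph* and *mt-Rnr2* lower, while in *Apoe* and *Serpine2* mouse WT_GF_199 lies within or just below the SPF range.

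Genes of the unfolded protein response, which raises chaperones when proteins fold poorly in the endoplasmic reticulum (ER), were raised in part. Of 21 tested members 3 rose and 0 fell, and the median was 0.24. *Hspa5* (chr2:34771970-34777547) encodes BiP, the main ER chaperone, and measured 1792, 1619, 1720 and 1764 CPM in GF and 1219, 1224, 1193, 1229 and 1334 CPM in SPF mice. The groups were tight and separate (log2 fold change 0.48, SE 0.102, adjusted p = 0.0156, and 0.0555 without mouse WT_GF_231). *Pdia6* (chr12:17266545-17284770), a disulphide isomerase, was at 652, 684, 670 and 686 CPM in GF and 514, 543, 476, 530 and 542 CPM in SPF mice. Its log2 fold change was 0.37 (SE 0.0799, adjusted p = 0.0157, with 0.0646 without mouse WT_GF_229 and 0.0588 without mouse WT_GF_231). *Sdf2l1*, a partner of BiP, was at 169 to 227 CPM in GF and 133 to 143 CPM in SPF mice (log2 fold change 0.54, SE 0.129, adjusted p = 0.0287), and passed in 12 of 21 alternatives, with up to 0.106 without a single mouse (mouse WT_GF_230) and 0.0921 with GC content offsets.

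The element that ATF6 is known to bind near such genes is shown for *Hspa5* and *Pdia6* because both rose. It consists of CCAAT and CCACG (capitals) with 9 bases between them, and lies at chr2:34772020-34772048 and chr12:17266486-17266514 of GRCm38.p6, both on the plus strand and printed with 5 bases on each side.
Hspa5: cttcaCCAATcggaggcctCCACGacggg
Pdia6: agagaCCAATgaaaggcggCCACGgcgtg
It begins 65 bases before the RefSeq start of *Hspa5* and 98 bases before that of *Pdia6*. In GENCODE M21 the *Hspa5* gene begins further upstream, at chr2:34771970, so its element lies inside that annotated gene. Among the 19 members of the list with a promoter in the RefSeq table, 6 held the element, 2 of which rose, while *Sdf2l1* rose without it in this window. The element was in 0.167% of the promoters of all tested genes, and it was searched for after the values were seen. In the wider list of heat shock proteins and chaperones *Hspa5* was the only 1 of 28 genes to pass.

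Genes of the cell cycle were expressed at low levels. Of 37 tested genes 2 rose, 0 fell and 33 had a positive log2 fold change, with a median of 0.59. *Ccnb2*, cyclin B2 of mitosis, was at 4.25, 3.17, 5.69 and 5.73 CPM in GF and 1.39, 1.80, 0.503, 0.991 and 1.26 CPM in SPF mice (log2 fold change 1.96, SE 0.39, adjusted p = 0.0105). *Cenpa*, the histone of the centromere, was at 6.04, 10.2, 6.55 and 9.66 CPM in GF and 3.42, 3.49, 2.07, 4.87 and 2.10 CPM in SPF mice (log2 fold change 1.33, SE 0.271, adjusted p = 0.011, with 0.062 without mouse WT_GF_229). Neither gene overlapped between the groups. The mean of the list was 3.03 to 3.22 log2 CPM in GF and 2.18 to 2.75 log2 CPM in SPF mice. Its median was between 0.41 and 0.64 under all alternatives. Among histone genes, which are counted here as polyadenylated transcripts, 1 of 28 rose and 2 fell. *H2afx*, the histone of DNA damage, rose by 0.82 (adjusted p = 0.0358), whereas the linker histone *H1f0* fell by 0.59 on the log2 scale (adjusted p = 0.0302) and *Hist1h2bc* by 0.70 (adjusted p = 0.0199). Without mouse WT_GF_229 the adjusted p-values of *H2afx*, *H1f0* and *Hist1h2bc* were 0.126, 0.0957 and 0.0629, and with GC content offsets that of *Hist1h2bc* was 0.0667.

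*Cd33*, a sialic acid-binding inhibitory receptor and a risk gene of Alzheimer's disease in humans, was at 671, 499, 548 and 545 CPM in GF and 857, 904, 885, 830 and 813 CPM in SPF mice. All GF mice lay below all SPF mice (log2 fold change -0.60, SE 0.111, adjusted p = 0.00704). *Ly86* (MD-1), the partner of the Toll-like receptor homologue CD180, was at 517, 860, 964 and 845 CPM in GF and 1546, 1154, 1041, 1184 and 1255 CPM in SPF mice. The log2 fold change of *Ly86* was -0.63 (SE 0.166, adjusted p = 0.0445), and its call was lost in 11 of 21 alternatives, with 0.128 without mouse WT_SPF_912 and 0.133 with GC content offsets. No other gene of 29 in the Toll-like receptor list passed with edgeR, and the median of that list was -0.04. In this list 7 genes had an unadjusted p-value under 0.05. DESeq2 called 1 higher and 2 lower, and voomWithQualityWeights 1 higher and 3 lower. *Tapbp*, tapasin of the class I loading complex, rose by 0.39 (adjusted p = 0.0413, with 0.151 without mouse WT_GF_229 and 0.0949 with GC content offsets). It was the only 1 of 19 class I genes to pass with edgeR, with a median of 0.0014 over the list (-0.016 with library size alone). Of the 19 genes 7 had an unadjusted p-value under 0.05. DESeq2 called 1 higher and 0 lower, and voomWithQualityWeights 3 higher and 2 lower.

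*Crybb1* was the only 1 of 25 homeostatic genes of microglia to pass with edgeR, and their median was 0.04. Of these genes 10 were below 0.05 before adjustment, DESeq2 called 3 higher and 2 lower, and voomWithQualityWeights 4 higher and 6 lower. *P2ry12*, the purine receptor that steers microglial processes, was at 8779, 7750, 8032 and 7825 CPM in GF and 10737, 9908, 8469, 8724 and 9778 CPM in SPF mice, with overlapping groups (log2 fold change -0.23, SE 0.108, adjusted p = 0.267). *Fcrls*, an Fc receptor-like gene of microglia, did not overlap, with 3202 to 3800 CPM in GF and 2673 to 2920 CPM in SPF mice, but missed the threshold (0.28, adjusted p = 0.0575). Among 27 transcription factors 8 had an unadjusted p-value under 0.05 with edgeR. DESeq2 called 2 higher and 2 lower, and voomWithQualityWeights 2 higher and 4 lower. With edgeR only *Mef2a* passed. It was at 742, 519, 510 and 545 CPM in GF and 706, 898, 922, 842 and 812 CPM in SPF mice (log2 fold change -0.53, SE 0.133, adjusted p = 0.0379), with mouse WT_GF_199 inside the SPF range and a loss of the call without 7 single mice (up to 0.146 without mouse WT_GF_229) and with GC content offsets (0.114). In the TGF-beta pathway 1 of 20 genes passed, the receptor *Bmpr2*, which fell by 0.73 on the log2 scale (adjusted p = 0.0362, and up to 0.132 without mouse WT_GF_231). With GC content offsets the log2 fold change of *Bmpr2* was -0.43 (adjusted p = 0.196), and with gene length offsets -0.57 (0.0746).

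Genes of disease-associated microglia mark the state described around amyloid plaques. Of 29 tested genes 2 rose, *Apoe* and *Serpine2*, and 0 fell, while 24 had a positive log2 fold change and the median was 0.24. The mean of the list was 6.74 log2 CPM in mouse WT_GF_199, 7.00 to 7.34 log2 CPM in the other GF mice and 6.64 to 6.85 log2 CPM in SPF mice. *Trem2*, the lipid-sensing receptor needed for this state, was at 1459, 1833, 1890 and 1730 CPM in GF and 1596, 1649, 1547, 1575 and 1428 CPM in SPF mice (log2 fold change 0.15, adjusted p = 0.494). Mouse WT_GF_199 lay inside the SPF range and the other GF mice above it. The fungal pattern receptor *Clec7a* was at 21.6 to 35.2 CPM in GF and 24.7 to 37.1 CPM in SPF mice (-0.17, adjusted p = 0.731), and the integrin *Itgax* at 5.73 to 12.6 and 5.67 to 11.5 CPM (0.12, adjusted p = 0.895). *Axl*, a receptor for dying cells, was at 22.2 to 46.1 CPM in GF and 7.75 to 28.4 CPM in SPF mice (0.78, adjusted p = 0.119). *Cst7*, an inhibitor of cathepsins, was at 5.65 to 17.0 and 5.91 to 8.96 CPM (0.35, adjusted p = 0.496), and the tetraspanin *Cd9* at 952 to 1180 and 931.8 to 1129 CPM (0.07, adjusted p = 0.791).

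The largest falls among genes with a mean of at least 3 log2 CPM concerned genes with diverse roles. *Qser1*, *Sowahc* and *Mcur1* are given with them for their small p-values and are not among the 12 largest falls. *Mlph*, melanophilin of organelle transport, was at 87.5, 42.7, 39.3 and 30.6 CPM in GF and 123, 129, 132, 124 and 130 CPM in SPF mice. The SPF mice were tight, mouse WT_GF_199 was intermediate and the log2 fold change was -1.35 (SE 0.291, adjusted p = 0.0157). *Nbea*, neurobeachin of membrane traffic, fell from 68.0, 54.6, 62.3, 64.1 and 58.4 CPM in SPF mice to 36.2, 30.3, 18.0 and 21.8 CPM in GF mice (log2 fold change -1.21, SE 0.243, adjusted p = 0.0105). *Rlim*, a ubiquitin ligase gene on the X chromosome, fell from 102, 99.6, 117, 117 and 118 CPM to 59.2, 41.5, 54.6 and 47.0 CPM (log2 fold change -1.13, SE 0.219, adjusted p = 0.0088). None of these overlapped between the groups. *Hsd17b11*, a dehydrogenase of lipid droplets, was at 19.8, 21.4, 21.1 and 20.8 CPM in GF and 53.5, 41.3, 38.0, 44.5 and 41.5 CPM in SPF mice, with very little spread among GF mice (log2 fold change -1.08, SE 0.158, adjusted p = 0.000738). *Paip1*, which links poly(A)-binding protein to translation, was at 7.24 to 8.56 CPM in GF and 11.8 to 23.3 CPM in SPF mice (-1.11, adjusted p = 0.00905). *Qser1*, a protein that protects DNA from methylation, was at 7.67 to 12.6 and 18.4 to 24.6 CPM (-1.05, adjusted p = 0.00331), and *Sowahc* at 88.3 to 131 and 163 to 213 CPM (-0.91, adjusted p = 0.00331). *Mcur1*, a regulator of mitochondrial calcium uptake, was at 70.3 to 95.4 and 117 to 137 CPM (-0.59, adjusted p = 0.00555). *Eya4*, a transcriptional coactivator, was at 12.1 to 16.7 and 24.7 to 34.0 CPM (-1.11, adjusted p = 0.0248), the glycosyltransferase *C1galt1* at 5.73 to 13.8 and 19.7 to 27.9 CPM (-1.10, adjusted p = 0.0421), the Hippo pathway gene *Mob1b* at 10.2 to 19.1 and 18.2 to 36.3 CPM (-1.08, adjusted p = 0.011), and *Fam129a* at 6.57 to 36.6 and 40.8 to 57.2 CPM (-1.35, adjusted p = 0.0388). The call of *Mlph* was lost without any of mice WT_GF_229, WT_GF_230 and WT_GF_231 (up to 0.0819), that of *Nbea* without mouse WT_GF_230 or WT_GF_231 (up to 0.0542), and those of *Eya4*, *C1galt1*, *Mob1b* and *Fam129a* without 3 to 8 single mice (up to 0.15, *C1galt1* without mouse WT_GF_231). With GC content offsets the adjusted p-values of these 4 genes were 0.0512, 0.138, 0.0699 and 0.0639.

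Single transcripts related to ribosomal RNA or mitochondria fell in GF mice. *Rn18s-rs5*, which is related to 18S ribosomal RNA, was at 130, 151, 149 and 154 CPM in GF and 520, 221, 396, 446 and 602 CPM in SPF mice (log2 fold change -1.58, SE 0.318, adjusted p = 0.0105). *mt-Rnr2*, the large ribosomal RNA of mitochondria, was at 189, 188, 218 and 205 CPM in GF and 683, 329, 441, 445 and 433 CPM in SPF mice (-1.22, SE 0.273, adjusted p = 0.0198). *Lars2*, the mitochondrial leucyl-tRNA synthetase, was at 113, 139, 112 and 151 CPM in GF and 372, 214, 244, 254 and 288 CPM in SPF mice (-1.09, SE 0.2, adjusted p = 0.00663). The GF mice were tight in all of these and the SPF mice spread widely, with mouse WT_SPF_925 nearest to the GF mice. Of 13 respiratory genes of the mitochondrial genome 7 were tested, all 7 had a negative log2 fold change and *mt-Nd2*, a complex I subunit, passed (-0.93, SE 0.243, adjusted p = 0.0434). Their median was -0.64, and -0.23 with GC content offsets, under which *mt-Nd2* (adjusted p = 0.242) and *mt-Rnr2* (0.114) no longer passed. Without mouse WT_GF_229 their adjusted p-values were 0.163 and 0.0902. Complementary DNA was primed on poly(A) tails, and the share of reads on the mitochondrial genome was 0.111 to 0.147% in GF and 0.162 to 0.285% in SPF libraries. A sum of 7 transcripts related to ribosomal RNA and small RNA that included *Rn18s-rs5*, *mt-Rnr2* and *Lars2* was 483 to 586 CPM in GF and 874 to 1767 CPM in SPF libraries. The part of RNA composition in these falls was not tested.

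Nuclear genes of energy metabolism had few calls in WT mice. Of 36 nuclear subunits of respiratory complex I and 39 of complexes II to V 0 passed with edgeR, with medians of 0.07 and 0.02. Each list held 4 genes below 0.05 before adjustment, and DESeq2 called 1 and 0 and voomWithQualityWeights 3 and 4 genes, each below the share over all genes. Among 24 enzymes of the tricarboxylic acid cycle 0 passed with edgeR, 7 had an unadjusted p-value under 0.05, and DESeq2 called 3 and voomWithQualityWeights 7, all higher. The mean of the list was 6.46 to 6.48 log2 CPM in the GF and 6.26 to 6.39 log2 CPM in the SPF mice. The malate dehydrogenase *Mdh2* had a log2 fold change of 0.33 (adjusted p = 0.0954) and the isocitrate dehydrogenase *Idh2* of 0.33 (adjusted p = 0.0966). Glycolysis had 2 falls among 22 enzymes. *Hk2*, the inducible hexokinase, was at 122, 99.7, 128 and 118 CPM in GF and 169, 159, 210, 170 and 193 CPM in SPF mice (log2 fold change -0.62, SE 0.14, adjusted p = 0.0198), which was lost without 4 single mice (up to 0.106 without mouse WT_GF_229). *Aldoc*, a brain aldolase and astrocyte marker, was at 0 to 0.515 CPM in GF and 0.515 to 6.43 CPM in SPF mice (-3.67, adjusted p = 0.0377, and 0.139 without mouse WT_GF_229). Antioxidant enzymes had 0 calls among 23 genes with edgeR, where 2 had an unadjusted p-value under 0.05, and DESeq2 called 1 and voomWithQualityWeights 2. The glutathione peroxidase *Gpx1* was at 301 to 399 CPM in GF and 226 to 294 CPM in SPF mice (0.46, adjusted p = 0.104).

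Protein synthesis and breakdown showed a small number of rises. In the mitochondrial ribosome 4 of 78 genes rose and 0 fell, with a median of 0.14. These were *Mrpl12* (0.64, adjusted p = 0.0358), *Mrpl28* (0.62, adjusted p = 0.0434), *Mrps11* (0.57, adjusted p = 0.0377) and *Mrps15* (0.39, adjusted p = 0.0392), and all were higher in 4 of 4 GF mice than in any SPF mouse. Of 84 cytosolic ribosomal protein genes only *Rps4l* rose (0.82, adjusted p = 0.0434), and its reads may be shared with the near-identical *Rps4x*. In the proteasome 2 of 38 subunits rose, the base ATPase *Psmc3* (0.33, adjusted p = 0.0446) and the lid subunit *Psmd11* (0.48, adjusted p = 0.0446). *Eif5a2*, a form of the translation factor eIF5A, fell by 1.41 on the log2 scale (adjusted p = 0.0491) and was the only 1 of 62 translation factors to pass with edgeR, whereas 5 were higher and 1 lower with DESeq2 and 10 higher and 2 lower with voomWithQualityWeights. In the mitochondrial ribosome, cytosolic ribosome and proteasome 5, 3 and 4 genes were called by DESeq2 and 10, 5 and 10 by voomWithQualityWeights, all higher. Each of these calls was lost without 7 or 8 single mice, with adjusted p-values up to 0.146 (*Psmd11*, without mouse WT_GF_229). With GC content offsets only the call of *Psmd11* was kept, and the adjusted p-values of the others were between 0.0743 and 0.166. The mTOR pathway (34 genes, the kinase *Akt1* at 0.30, adjusted p = 0.114), autophagy (35 genes, the initiation factor *Becn1* at 0.30, adjusted p = 0.14) and cathepsins with V-ATPase (32 genes, cathepsin D gene *Ctsd* at 0.21, adjusted p = 0.193) had 0 calls with edgeR, with medians of 0.04, 0.08 and 0.08. At an unadjusted p-value under 0.05 they had 5, 3 and 4 genes, and DESeq2 called 1, 0 and 0 and voomWithQualityWeights 3, 1 and 3.

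Of 30 tested splicing factors of the SR and hnRNP families 1 fell and 0 rose with edgeR, while 23 had a negative log2 fold change, with a median of -0.14. An unadjusted p-value under 0.05 was reached by 12. DESeq2 called 0 higher and 4 lower, and voomWithQualityWeights 2 higher and 7 lower. *Srsf5* was at 645, 699, 707 and 671 CPM in GF and 934, 876, 1014, 868 and 872 CPM in SPF mice (log2 fold change -0.42, SE 0.094, adjusted p = 0.0188). The mean of the list was 6.41 to 6.47 log2 CPM in GF and 6.56 to 6.62 log2 CPM in SPF mice. Its median was -0.05 with gene length offsets and -0.02 with GC content offsets, where the adjusted p-value of *Srsf5* was 0.201, and without mouse WT_SPF_926 it was 0.0698.

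Signals that microbes are known to supply were looked at through their receptors and targets. The aryl hydrocarbon receptor senses indoles made from tryptophan by bacteria, and 6 of its 13 listed genes were expressed enough to be tested. With edgeR 0 passed. *Ahr* was at 1.70, 2.36, 0.0537 and 1.61 CPM in GF and 0, 0, 0, 1.12 and 0.0468 CPM in SPF mice (adjusted p = 0.36), levels too low in most libraries for a comparison. Among 19 genes of short-chain fatty acid receptors and histone deacetylases 0 passed, with *Sirt7* at 183.9 to 238 CPM in GF and 152 to 179 CPM in SPF mice (0.36, adjusted p = 0.0946) and *Hdac6* at 25.2 to 32.7 and 19.4 to 23.1 CPM (0.46, adjusted p = 0.264). Bile acid, retinoid and vitamin D receptors gave 0 of 10, where *Rxrg* was at 0 to 1.42 CPM in GF and 1.15 to 2.41 CPM in SPF mice (adjusted p = 0.177). The medians of the 3 lists were 0.14, -0.04 and -0.02. They held 1, 2 and 2 genes with an unadjusted p-value under 0.05, and DESeq2 called 0, 1 and 1 and voomWithQualityWeights 2, 2 and 2.

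Innate immune programmes without a call in edgeR were the type I interferon genes, NF-kappaB genes, complement and Fc receptors. Interferon-stimulated genes are switched on by type I interferon, which is known to have a microbe-driven tonic level. Of 32 tested genes 0 passed, 28 had a positive log2 fold change and the median was 0.49. That median rested on mouse WT_GF_230. The mean of the list was 2.74, 1.84, 4.42 and 2.46 log2 CPM in the GF mice and 2.55 to 3.39 log2 CPM in the SPF mice, and without mouse WT_GF_230 the median was -0.29. *Irf7*, the interferon regulatory factor that amplifies the response, was at 7.83, 3.10, 53.6 and 9.34 CPM in GF and 3.14, 5.91, 2.85, 5.17 and 9.73 CPM in SPF mice (1.78, adjusted p = 0.0954). *Ifi27l2a* was at 3.66 to 8.95 CPM in GF and 2.18 to 4.63 CPM in SPF mice (0.96, adjusted p = 0.122). In the NF-kappaB list 0 of 22 passed, with a median of -0.0027, and *Rela* was at 214 to 237 and 177 to 213 CPM (0.22, adjusted p = 0.26) and *Il6* at 6.76 to 12.4 and 9.72 to 16.7 CPM (-0.63, adjusted p = 0.201). Complement had 0 of 18, with *C1qb* at 7282, 9798, 9725 and 9404 CPM in GF and 6426 to 7298 CPM in SPF mice (0.39, adjusted p = 0.0562). In Fc receptors 0 of 8 passed, and the inhibitory *Fcgr2b* was at 213 to 278 CPM in GF and 281 to 340 CPM in SPF mice (-0.39, adjusted p = 0.0566). In the order of interferon, NF-kappaB, complement and Fc receptor genes, 5, 3, 7 and 3 had an unadjusted p-value under 0.05. DESeq2 called 2, 0, 1 and 3 genes and voomWithQualityWeights 0, 1, 6 and 3.

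The lists of glucocorticoid receptor targets, immediate early genes and clock genes also gave 0 calls with edgeR. They held 9, 5 and 6 genes with an unadjusted p-value under 0.05, and DESeq2 called 4, 4 and 3 and voomWithQualityWeights 7, 3 and 5. Of 19 tested genes of the glucocorticoid receptor list 16 had a positive log2 fold change, with a median of 0.42. *Fkbp5*, a co-chaperone that glucocorticoids induce, was at 123, 144, 138 and 141 CPM in GF and 90.3, 77.1, 61.6, 104 and 77.7 CPM in SPF mice (0.73, adjusted p = 0.101), and *Sult1a1* at 107 to 140 and 75.6 to 97.7 CPM (0.55, adjusted p = 0.0871). Both were higher in 4 of 4 GF mice than in any SPF mouse. Immediate early genes, which tissue handling can induce, had a median of 0.20 over 26 genes, with *Ppp1r15a* at 28.7 to 47.0 CPM in GF and 19.5 to 24.9 CPM in SPF mice (0.67, adjusted p = 0.0737) and *Ier2* at 15.3 to 22.6 and 8.94 to 13.6 CPM (0.80, adjusted p = 0.097). In the clock *Arntl* (BMAL1) was at 8.37 to 21.5 and 25.3 to 33.3 CPM (-0.74, adjusted p = 0.0695), over 21 genes with a median of 0.16.

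**Figure D4:**
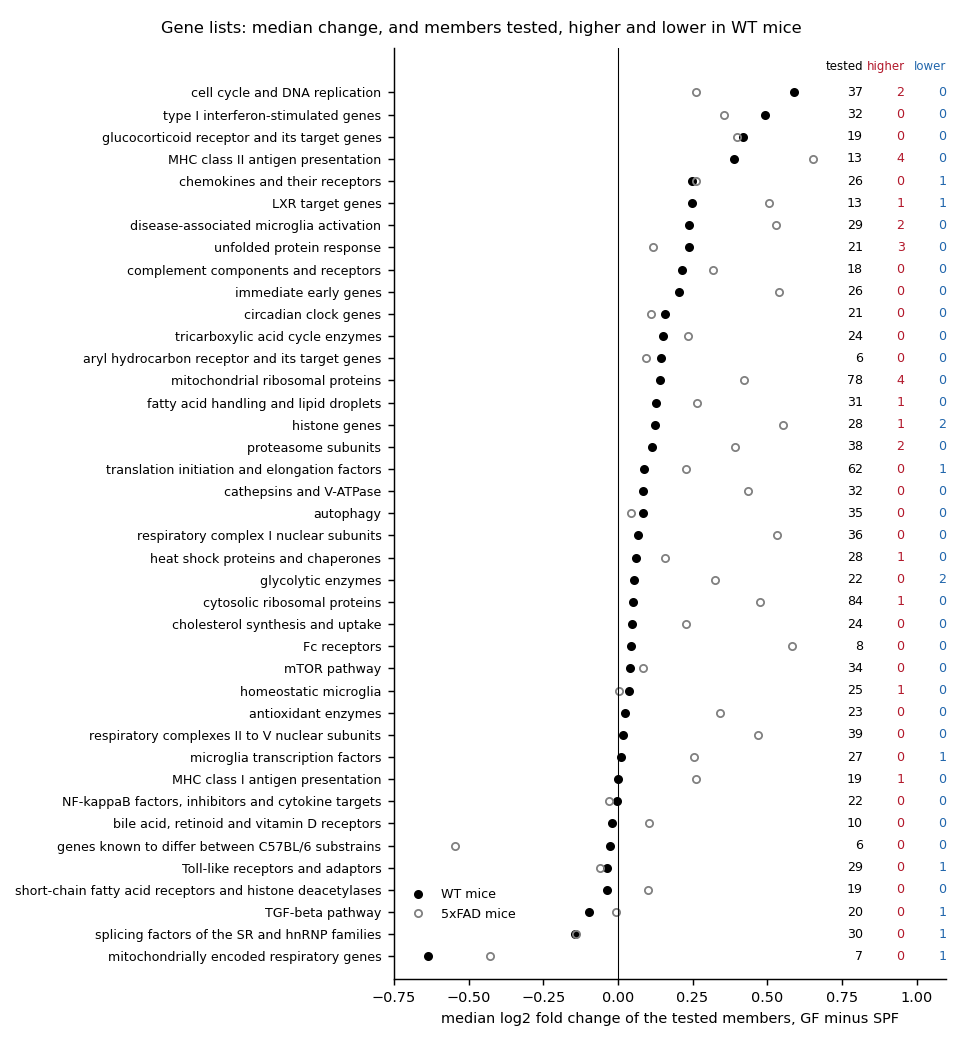
Median log2 fold change of GF against SPF mice for 40 gene lists, with filled points for WT and open points for 5xFAD mice, and the numbers of genes tested, higher and lower in WT mice beside each list. The highest medians in WT mice are those of the cell cycle (0.59), interferon-stimulated genes (0.49, and -0.29 without mouse WT_GF_230), glucocorticoid receptor targets (0.42) and class II (0.39). Mitochondrially encoded genes have the lowest (-0.64). Lists of nuclear respiratory subunits, cathepsins with V-ATPase, ribosomal proteins and the proteasome lie between 0.02 and 0.14 in WT mice. In 5xFAD mice these lists lie between 0.39 and 0.53.

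The same housing contrast was available in 5xFAD mice, with no mouse in common with the WT comparison but the same pair of facilities. There 1962 genes (12.8%) differed between 5 GF and 3 SPF mice (edgeR), against 2492 with DESeq2 and 3872 with voomWithQualityWeights. Of the 248 genes of the WT comparison, 124 of the 133 higher and 107 of the 115 lower genes had the same sign in 5xFAD mice, beside 67.7% of all tested genes. In both genotypes 113 genes passed in the same direction, 53 higher and 60 lower, which is 45.6% of the genes of WT mice and 5.76% of those of 5xFAD mice. *Prpf31* rose in 5xFAD mice too, from 40.6 ± 2.93 CPM (SD, n = 3) to 89.8 ± 16.7 CPM (SD, n = 5), a log2 fold change of 1.14 (adjusted p = 0.000361). *Apoe* stood at 4142 ± 771 CPM in SPF and 8731 ± 1939 CPM in GF 5xFAD mice, against 403 ± 108 CPM (SD, n = 5) and 758 ± 252 CPM (SD, n = 4) in WT mice, with log2 fold changes of 1.08 (adjusted p = 0.00731) and 0.91. *Scarb1* rose by 0.64 (adjusted p = 0.00372) and *Serpine2* by 0.72 (adjusted p = 0.00675). *Cd33* fell from 724 ± 90.5 to 437 ± 39.8 CPM (-0.73, adjusted p = 0.000823). *Nbea* (-1.27, adjusted p = 0.00274), *Rlim* (-1.11, adjusted p = 0.00307), *Mlph* (-0.90, adjusted p = 0.0453) and *Hk2* (-0.73, adjusted p = 0.00299) fell as well.

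The 4 class II genes that rose in WT mice did not pass in 5xFAD mice. *H2-Aa* was at 19.3 ± 5.30 CPM in SPF and 62.9 ± 38.8 CPM in GF 5xFAD mice (1.70, adjusted p = 0.148), *Cd74* at 171 ± 33.9 and 437 ± 191 CPM (1.35, adjusted p = 0.12), *H2-Eb1* at 11.6 ± 6.12 and 51.6 ± 33.4 CPM (2.16, adjusted p = 0.0646) and *H2-Ab1* at 47.8 ± 8.92 and 147 ± 84.5 CPM (1.62, adjusted p = 0.0702). *Hspa5* (0.22, adjusted p = 0.209), *Ccnb2* (0.78, adjusted p = 0.223), *Crybb1* (0.33, adjusted p = 0.272) and *mt-Rnr2* (-0.38, adjusted p = 0.433) did not pass in 5xFAD mice either. Lists with few or 0 calls in WT mice had many there: 22 of 36 complex I subunits, 20 of 39 subunits of complexes II to V, 20 of 32 cathepsin and V-ATPase genes, 28 of 78 mitochondrial and 20 of 84 cytosolic ribosomal protein genes, 21 of 38 proteasome subunits and 16 of 29 genes of disease-associated microglia were higher in GF 5xFAD mice. Their medians were 0.53, 0.47, 0.44, 0.42, 0.48, 0.39 and 0.53 in 5xFAD mice.

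A difference of the housing effect between the genotypes was tested for each gene with an interaction term. It was past the threshold for 0 genes with edgeR (1304 genes had an unadjusted p-value under 0.05), for 25 genes with DESeq2 and for 116 with limma's voomWithQualityWeights. Without mouse FAD_GF_201 it was 8 genes, and 1 gene without mouse WT_SPF_926, WT_SPF_936 or FAD_GF_185. The smallest adjusted p-value, 0.0724, belonged to *Gm15446* and *Adora1*, which were picked out by this value. *Gm15446* (chr5:109923400-109943936), a predicted protein-coding gene, was at 3.92 to 7.28 CPM in GF WT and 0.204 to 0.281 CPM in SPF WT mice (4.62, adjusted p = 0.000117), but at 1.55 to 5.88 CPM in GF and 2.76 to 3.60 CPM in SPF 5xFAD mice. The SPF WT mice were thus the low group, as were ABX WT mice with 0.115 to 0.33 CPM. *Adora1*, the adenosine A1 receptor, was at 0.94 to 2.19 CPM in GF WT and 2.20 to 4.78 CPM in SPF WT mice, but at 16.8 to 35.5 CPM in GF and 9.36 to 15.4 CPM in SPF 5xFAD mice, and it was the only gene that passed in both genotypes in opposite directions.

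**Figure D5:**
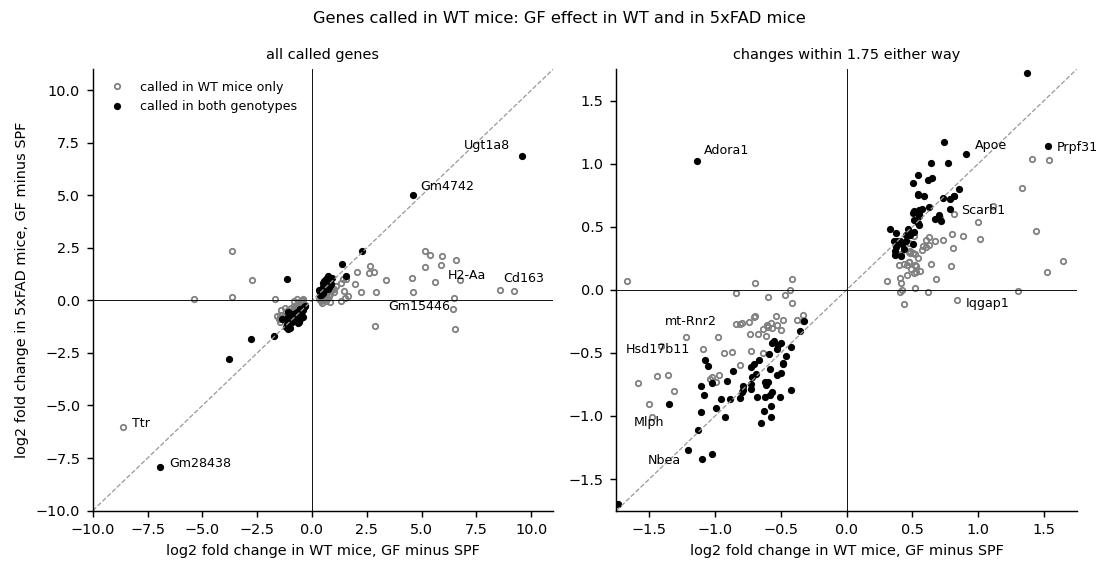
Log2 fold change of GF against SPF mice in WT mice (horizontal axis) and in 5xFAD mice (vertical axis) for the 248 genes of the WT comparison, all in the left panel and those near the origin in the right panel, with filled points for genes past the threshold in both genotypes. Most points have the same sign on both axes, and 113 genes passed in both in the same direction.

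Removal of bacteria by antibiotics in adult WT mice gave a different count against the same SPF mice. With edgeR 0 genes differed between ABX and SPF WT mice, at 687 genes with an unadjusted p-value under 0.05, 2 with DESeq2 and 0 with voomWithQualityWeights. GF and ABX WT mice were compared directly, since both contrasts with SPF mice share those mice. There 1053 genes (6.88%) differed, 686 higher and 367 lower in GF mice. For the leading genes, *Prpf31* was at 34.6 to 46.5 CPM in ABX mice, *Cd74* at 13.7 to 41.2 CPM, *H2-Aa* at 0.661 to 3.26 CPM, *Apoe* at 293 to 451 CPM and *Serpine2* at 942 to 1161 CPM. *Cd33* was at 750 to 809 CPM, *Mlph* at 119 to 145 CPM and *Hspa5* at 1257 to 1486 CPM. The ABX values of *Prpf31*, *H2-Aa*, *Cd33*, *Mlph* and *Hspa5* did not overlap with those of the GF mice, while those of *Cd74*, *Apoe* and *Serpine2* did. The share of all tested genes without overlap between GF and ABX mice was not counted. The number of genes between GF and ABX mice was 446 without mouse WT_GF_229, 587 without mouse WT_GF_231, 610 without mouse WT_GF_230, and 504, 627 and 644 without mice WT_ABX_911, WT_ABX_910 and WT_ABX_909. It was 176 with GC content offsets and 69 without mice WT_GF_229 and WT_GF_230.

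Gene regulatory motifs fixed in a list were searched for in RefSeq promoters, from 250 bases before to 50 bases after the start and on both strands, as a description. The promoters of 95 higher and 84 lower genes were compared with those of 10200 tested genes. The PU.1 motif GAGGAA, of the master factor of macrophages, was in 42.1% of higher, 34.5% of lower and 26.8% of all tested genes. The aryl hydrocarbon receptor core GCGTG was in 50.5%, 47.6% and 49.9%, the interferon-stimulated element GAAANNGAA in 8.42%, 8.33% and 7.39%, and the glucocorticoid receptor motif AGAACA in 9.47%, 9.52% and 12.9%. The E-box CACGTG was in 5.26%, 10.7% and 9.95%, the antioxidant element TGACNNNGC in 10.5%, 14.3% and 14.7%, the ETS motif CCGGAAG in 14.7%, 10.7% and 18.3% and the NRF1 motif GCGCATGC in 3.16%, 7.14% and 5.47%.

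Because the mice came from different colonies, genes known to differ between substrains of C57BL/6 mice were looked at. Of 6 tested genes 0 passed with edgeR, DESeq2 or voomWithQualityWeights, and 0 had an unadjusted p-value under 0.05. *Nnt*, a mitochondrial transhydrogenase that is truncated in C57BL/6J mice, was at 107 to 133 CPM in GF and 95.8 to 132 CPM in SPF mice (0.01, adjusted p = 0.986). *Wdfy1*, an endosomal adaptor, was at 20.8, 106, 71.3 and 107 CPM in GF and 127, 124, 116, 118 and 112 CPM in SPF mice (-0.65, adjusted p = 0.359), so mouse WT_GF_199 lay far below the rest. *Alad* of haem synthesis (0.38, adjusted p = 0.387), the insulin-degrading enzyme *Ide* (-0.07, adjusted p = 0.901), *Cyfip2* (0.83, adjusted p = 0.816) and *Kcnc2* (-0.41, adjusted p = 0.857) were the others.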

How the data were processed

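RNA of FACS-isolated microglia was amplified from 300 pg with the SMARTer v4 kit, which does not mark strand, and sequenced as single reads in the study. With STAR 2.7.2 and featureCounts 1.6.2 the authors made raw counts per gene on GRCm38 and GENCODE M21, and these counts were deposited as they were. Tool versions are from the submitters' processing notes. All 28 libraries and all per-sample columns were used, and the table lists 48587 genes after 92 spike-in entries with at most 12 reads were left out. Groups are those of the titles, and mice keep the numbers of their titles. With 15182194 to 25751625 reads per library of the 9 mice, precision was limited by the spread between mice.

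Counts were scaled by TMM and fitted with edgeR 4.0.16 in R 4.3.3 in 1 model with 6 groups, with 15298 genes kept by filterByExpr (count of 10, total of 15). The quasi-likelihood test was used, with Benjamini-Hochberg adjustment over all genes tested and a threshold of 0.05. CPM values refer to TMM-scaled library sizes, and sums of markers to library totals. A prior count of 2 was added for log2 CPM. For single genes, differences were also tested by exact two-sided permutation tests of mean log2 CPM. Genes at 0 in a whole group are given as a bound from 3 reads over that group.

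The gene lists and motifs were chosen with earlier results of these data known. Genes are named by a rule: for rises and for falls, the 12 largest changes past the threshold with a mean of at least 3 log2 CPM and no predicted symbol, the 6 further such genes with the smallest p, up to 4 genes past the threshold per list or else 2 with the smallest p, tested substrain genes, markers, and 8 genes of microglial activation. Others are named after their values were seen. Some genes that the rule selects are not reported here. Lists are described by counts and medians, with no set test. Promoter sequences are from RefSeq (GRCm38.p6), where 179 of the 248 genes had an entry.

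Alternatives were RLE factors, library size alone, no filter, at least 10 counts in every library, DESeq2 1.42.0, voomWithQualityWeights of limma 3.58.1, only the groups compared, 26 libraries without a pair of ABX 5xFAD mice, the fit without mouse FAD_GF_201, gene length and GC content offsets, other thresholds and leaving out each mouse. Leaving out mice WT_GF_229 and WT_GF_230 together was chosen after seeing the data. On simulated counts with 200 changed genes for 4 against 5 mice, edgeR recovered 25.5% of genes at a log2 fold change of 0.5, 88.5% at 1 and 97.0% at 1.5, with 1.92%, 2.21% and 3.48% false calls. The changed genes were drawn from those with an average above 3 log2 CPM. Mice were simulated independently, with no divided GF group and no trend with GC content. These rates therefore do not cover genes at lower levels or calls that depend on single mice. Python 3.11.15 with matplotlib 3.10.9 drew the figures.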

Additional observations from a re-analysis of the deposited data

Results flagged for a closer look

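In groups of 4 or 5 mice, a mouse was singled out where its gap to the nearest mouse exceeded Dixon's critical value for the range of its group. This was done for 104 groups of values, and chance singles out about 1 in 20. *Glrp1* was at 8.91 CPM in mouse WT_GF_199, whereas the other GF mice were between 72.4 and 73.1 CPM. *Prpf31* was at 84.8 CPM in mouse WT_GF_199 and between 128 and 136 CPM in the other GF mice, still above every SPF mouse. *C1galt1*, a glycosyltransferase of O-glycans that fell in GF mice, was at 27.9 CPM in mouse WT_SPF_936 and between 19.7 and 21.04 CPM in the other SPF mice. Summed pericyte markers were at 2.23 CPM in mouse WT_GF_230 and between 0.453 and 0.527 CPM in the other GF mice. Summed T or NK cell markers were at 0.0659 CPM in mouse WT_GF_231 and at 0 in the other GF mice, and at 0.747 CPM in mouse WT_SPF_928, where the other SPF mice had at most 0.059 CPM.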

How the results depend on the processing

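All 248 genes kept their sign under every alternative in which they were tested. The count of 248 (133 higher, 115 lower) was 707 (421, 286) with DESeq2, 1631 (842, 789) with voomWithQualityWeights, 1286 (672, 614) with only the groups compared, 659 (348, 311) in 26 libraries, 363 (255, 108) with gene length offsets, 124 (86, 38) with GC content offsets, 3 (3, 0) without mice WT_GF_229 and WT_GF_230, 31 (17, 14) at an adjusted p under 0.01 and 2538 (1322, 1216) at an unadjusted p under 0.05. Without single mice it was 54 to 359, with 32 to 194 higher and 22 to 165 lower. The other alternatives stayed within 1.5 times. The count of genes whose housing effect differed between genotypes was 2 with no filter, 25 with DESeq2, 116 with voomWithQualityWeights, 1 with only the groups compared, 3 in 26 libraries, 8 without mouse FAD_GF_201, 3 with length offsets, 5 with GC offsets, 1304 at an unadjusted p under 0.05 and 0 to 8 without single mice. For GF against ABX WT mice, 1053 became 1606 with DESeq2, 2025 with voomWithQualityWeights, 176 with GC offsets, 69 without mice WT_GF_229 and WT_GF_230, 280 at an adjusted p under 0.01, 3458 at an unadjusted p under 0.05 and 446 to 1153 without single mice. The cause of these shifts was not tested. Of 58 named genes past the threshold, 57 were lost without mice WT_GF_229 and WT_GF_230 and 34 were kept with GC content offsets. Of 19 gene lists without a call, 13 had a call with DESeq2, 17 with voomWithQualityWeights and 16 with only the groups compared, and of 21 lists with a call 12 had 0 with GC content offsets. Signs turned for genes that had not passed: *Cd9* (-0.030) and *Itgax* (-0.18) without mice WT_GF_229 and WT_GF_230, *Clec7a* (0.077) and *P2ry12* (0.061) with GC offsets, *Cyfip2* (-0.028) with voomWithQualityWeights, *Ide* with GC offsets (0.10) and without mice WT_GF_229 and WT_GF_230 (0.17), and *Nnt* with library size alone (-0.0061) and voomWithQualityWeights (-0.029). Without single mice *Itgax* ranged from -0.093 to 0.28, *Cst7* from -0.073 to 0.53, *Ide* from -0.18 to 0.045 and *Nnt* from -0.054 to 0.060. No paired analysis was possible because GF and SPF mice share no replicate numbers. Depth limits genes below about 1 CPM, and changes of 0.5 on the log2 scale were mostly out of reach of 4 against 5 mice.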

Other observations

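Other genes stood out in the comparison of GF with SPF WT mice and are given here as values, chosen after they were seen. Among genes past the threshold, those with reads in GF mice and 0 reads in all 5 SPF libraries were *Ugt1a8*, *Cd163*, *Clec12a*, *Cd38*, *Elavl2*, *Cd209f*, *1010001B22Rik* and *Clec10a*. *Cd163*, the haemoglobin scavenger receptor of macrophages, had 262 reads in the GF libraries, 187 of them in mouse WT_GF_230 and 68 in mouse WT_GF_229, and was at least 134-fold higher, or at least 51.8-fold without mouse WT_GF_230. *Clec12a*, an inhibitory lectin of myeloid cells, had 158 reads and was at least 81.1-fold higher, but had 0 reads in mouse WT_GF_199. *Cd38*, an enzyme that consumes NAD, had 51 reads and was at least 26.2-fold higher, but had 0 reads in mouse WT_GF_231. These bounds are for the pooled reads of the GF mice. *Ugt1a8* had 315 reads and was at least 162-fold higher, but it shares exons with the other genes of the Ugt1a family, and mouse WT_GF_199 was at 0.0448 CPM. The opposite held for *Gm28438* (chr1:24612775-24613119), annotated as an unprocessed pseudogene, which had 0 reads in the GF libraries, 83 in the SPF libraries and was at least 18-fold lower in GF mice.

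Single metabolic genes are given next, with no list or test behind their choice. *Psat1*, which makes phosphoserine, rose from 23.9 ± 2.61 CPM (SD, n = 5) to 37.5 ± 7.27 CPM (SD, n = 4), a log2 fold change of 0.65 (adjusted p = 0.0221, edgeR). *Phgdh*, the first enzyme of the same pathway, rose from 32.2 ± 1.505 to 45.0 ± 4.05 CPM (0.48, adjusted p = 0.0427). *Asl*, which releases arginine, rose from 30.1 ± 2.31 to 44.1 ± 4.86 CPM (0.55, adjusted p = 0.0199). *Kynu*, kynureninase of tryptophan breakdown, fell from 1.25 ± 0.513 to 0.17 ± 0.221 CPM (-2.76, adjusted p = 0.0353). Beyond the cell cycle list, *Uhrf1*, which keeps DNA methylation through replication, rose from 1.20 ± 0.435 to 5.64 ± 3.06 CPM (2.25, adjusted p = 0.00395), and the spindle gene *Nusap1* from 1.37 ± 0.254 to 3.97 ± 0.562 CPM (1.53, adjusted p = 0.0286). In RNA processing *Tra2b* fell from 71.8 ± 3.14 to 43.4 ± 5.17 CPM (-0.72, adjusted p = 0.00878) and *Snrnp70* from 201.1 ± 12.2 to 144 ± 3.19 CPM (-0.48, adjusted p = 0.0362). *Gm3164*, a predicted protein-coding gene, was at 1.48 to 2.28 CPM in GF and 6.38 to 16.3 CPM in SPF mice (-2.79, adjusted p = 0.000706).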
